A study of Mus musculus with 43 samples.

Results

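The nuclear genes of the mitochondrial respiratory chain were followed in 9 mouse immune cell types, at baseline and after injection of interferon alpha. They were taken as the genes whose symbol starts with Nduf, Sdh, Uqcr, Cox4, Cox5, Cox6, Cox7, Cox8 or Atp5 on probe sets that carry a single symbol. The rule found 119 probe sets and 93 genes, among 19752 genes measured on the array. For 18 of the genes there was more than 1 probe set, and the brightest over all arrays was used. By role, the 93 genes are 6 core, 28 accessory and 7 assembly genes of complex I, 4 subunits and 4 assembly factors of complex II, 8 genes of complex III, 10 widely expressed and 8 tissue-restricted genes of complex IV, the supercomplex factor Cox7a2l, and 17 genes of ATP synthase. The genes encoded by mitochondrial DNA do not carry these prefixes and were not analysed here.

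RNA of sorted cells was hybridised to 43 Affymetrix Mouse Gene 1.0 ST arrays. All mice were male C57BL/6 aged 6 weeks, and interferon groups were taken 2 h after a subcutaneous dose of 10000 U of the antiviral cytokine interferon alpha. Per the labels, the groups were conventional CD4 T cells (CD4+), CD8 T cells (CD8+), regulatory T cells (CD25+ CD4+), gamma-delta T cells (TCRgd+), NK cells (NK1.1+ TCRb-), NKT cells (NK1.1+ TCRb+), dendritic cells (CD11c+) and neutrophils (Ly6G+) from spleen, and macrophages (F4/80+) from the peritoneal cavity. Baseline groups had 3 arrays except neutrophils with 2, and interferon groups had 2 arrays except macrophages with 1, for which the fit borrows the spread of the other groups. Untreated mice served as baseline and no vehicle injection is labelled. The labels do not say that arrays came from separate animals, and p-values therefore speak only of the spread from array to array. For CD8 T cell baseline arrays 1 and 2 the labels give both blood and spleen, and for macrophage baseline arrays 1 and 2 the preparation names spleen, which leaves their tissue of origin unsettled.

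Marker lists checked the sorts only in part, with no separate list for CD4 or CD8 T cells. Rsad2, an antiviral gene induced by interferon, rose in 9 of 9 cell types, by 2.55 to 5.78 on the log2 scale. The mean log2 level of 7 neutrophil markers was 12.77 to 13.11 on neutrophil arrays and at most 7.77 elsewhere, and that of 5 NK cell markers was 12.06 to 12.38 on NK cell arrays. For gamma-delta T cells only 1 of the listed markers was measured (Sox13). On their baseline arrays 8 T cell markers stood at 9.72 to 9.78 and NK cell markers at 7.53 to 9.53. B cell markers, of which 7 of 8 were measured, stood at 8.21 to 10.06 on gamma-delta T cell arrays, 8.19 to 8.90 on neutrophil baseline arrays and 6.60 to 6.75 on neutrophil interferon arrays. On dendritic cell arrays they stood at 7.85 to 8.06 at baseline and 7.22 to 7.28 after interferon, and in CD4, CD8 and regulatory T cells, NK cells and macrophages between 6.20 and 6.90. The labels also describe cell preparation in different words. Baseline arrays 1 and 2 share a wording that no interferon array has, so in neutrophils, which lack a baseline array 3, preparation and treatment cannot be told apart. In NK, NKT and CD4 T cells both interferon arrays have a wording of their own, absent at baseline, and preparation and treatment cannot be told apart there either.

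The respiratory chain passes electrons from NADH at complex I and from succinate at complex II through ubiquinone, complex III and cytochrome c to oxygen at complex IV, and ATP synthase uses the proton gradient this builds. Most of its subunits are encoded in the nucleus, and NRF1, GABPA (an ETS factor) and YY1 are known transcriptional regulators of these genes. Lymphocytes at rest draw much of their ATP from this chain, whereas mature neutrophils hold few mitochondria and rely largely on glycolysis.

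Promoter sequences of some genes named in the results are shown, picked because they hold cores of these regulators. For other genes named below, among them Sdhaf1, Ndufc2 and Atp5b, no such core was found. RefSeq windows of 300 bases around the start site (build GRCm38.p6) matched 77 of the 93 genes. The NRF1 core GCGCATGCG was found on either strand in 10 of the 77 genes (13%), against 1.95% of all 27025 genes with a window. The YY1 core ATGGCGGC was found in 7 (9.09%, against 2.60% of all genes) and the ETS core CCGGAAGT in 5 (6.49%, against 4.31%). The core of an interferon response element, AAANNGAAA, was found in 6 (7.79%, against 12.1%). These are letter matches and not measured binding sites. In the stretches that follow, written 5′ to 3′ on the gene's strand, capitals mark a match on either strand. The NRF1 core is nearly palindromic, and overlapping matches on both strands are marked as a single stretch. For Uqcr11, Atp5g2, Ndufa11 and Atp5h the stretch runs from base -120 to base 10, with the start site at base 0.
Uqcr11, minus strand, chr10:80406811-80406941, NRF1 and ETS cores: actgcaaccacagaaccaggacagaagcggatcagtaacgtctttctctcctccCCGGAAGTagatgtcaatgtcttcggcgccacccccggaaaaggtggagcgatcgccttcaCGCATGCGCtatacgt
Atp5g2, minus strand, chr15:102671037-102671167, NRF1 core: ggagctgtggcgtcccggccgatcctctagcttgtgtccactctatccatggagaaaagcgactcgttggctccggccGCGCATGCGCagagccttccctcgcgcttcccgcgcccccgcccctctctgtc
Ndufa11, plus strand, chr17:56717642-56717772, NRF1 core: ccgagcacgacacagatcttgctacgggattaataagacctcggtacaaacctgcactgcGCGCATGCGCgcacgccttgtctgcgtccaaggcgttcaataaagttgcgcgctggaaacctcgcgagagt
Atp5h, minus strand, chr11:115419909-115420039, ETS core: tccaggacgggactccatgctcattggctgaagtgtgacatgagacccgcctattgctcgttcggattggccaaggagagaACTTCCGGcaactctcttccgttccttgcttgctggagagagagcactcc
Ndufs7, plus strand, chr10:80249463-80249492, bases 14 to 43, YY1 core: ggccgaggccaagATGGCGGCgctggcggg
Ndufa9, minus strand, chr6:126849096-126849125, bases 19 to 48, YY1 core: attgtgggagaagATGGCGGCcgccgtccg

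Matches were spread over genes that behaved differently. Of the 14 genes lowered by interferon on average that had a window, 3 held the NRF1 core, as did 7 of the other 63. Of the 40 genes lower in baseline neutrophils that had a window, 6 held the NRF1 core, as did 4 of the other 37. The interferon response core was found in 1 of the 14 lowered genes and 5 of the other 63.

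At baseline the chain differed among cell types mainly through neutrophils, which were low in many genes, and NKT cells, which were high in many genes. Genes lower in neutrophils were found in every complex, and a difference between complexes was not tested. The level of 64 of the 93 genes differed among the 9 types (68.8%; F test in limma, adjusted p below 0.05), against 56.4% of all genes. With neutrophils left out, a setting added after seeing the data, 31 genes passed, and with baseline array 3 alone 13 did. Shares of all genes were computed only for the main fit, the model over the 18 groups without added terms. Counts under other settings, here and below, thus have no background beside them. Neutrophils had the lowest group mean in 56 of the 93 genes and NKT cells the highest in 38. The largest spreads of the 9 means were 2.85 for Sdhaf1, 2.20 for Ndufc2, 2.13 for Atp5g2, 1.93 for Ndufa9 and 1.89 for Atp5g1 on the log2 scale. In sorted bulk cells, a change in the share of contaminating or subset cells and a change in RNA per cell cannot be told apart.

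**Figure D1:**
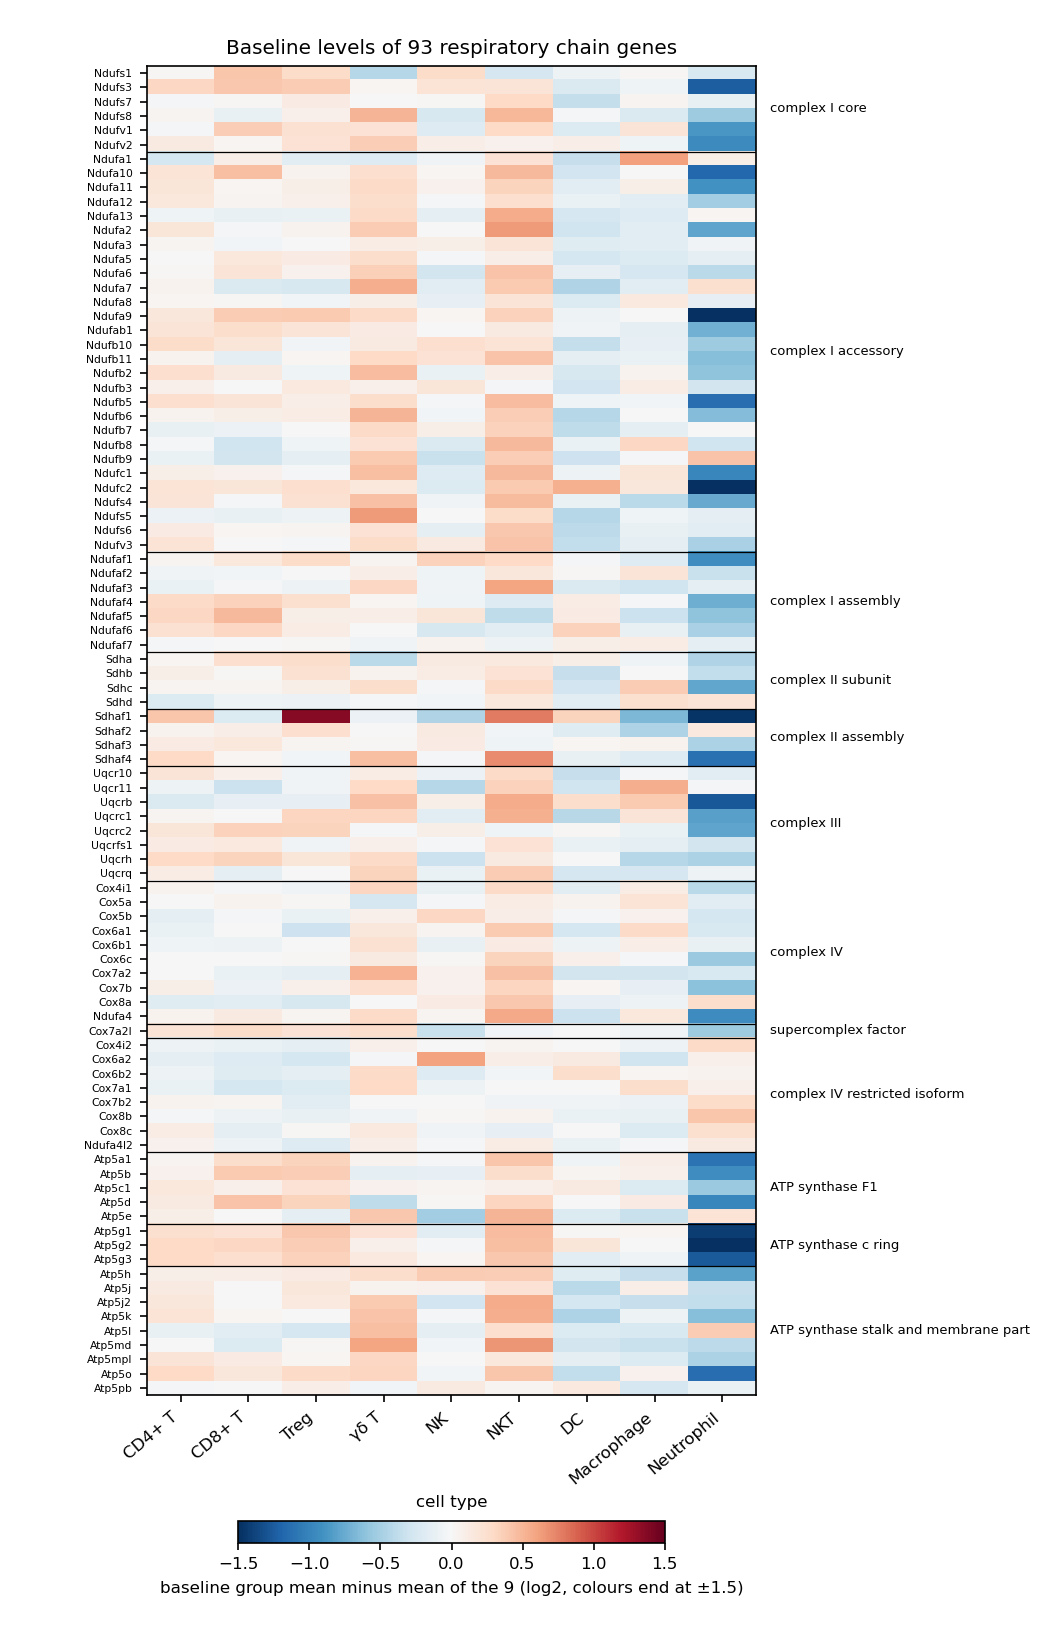
Baseline log2 level of each of the 93 genes (rows, grouped by role) in each cell type (columns), as the group mean minus the mean of the 9 group means; blue is lower, red is higher and colours end at ±1.5. The neutrophil column is blue in most complex I and ATP synthase rows, with Atp5g2 and Ndufc2 among the deepest, and the Sdhaf1 row runs from red in regulatory T cells to blue in neutrophils.

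In baseline neutrophils, 47 of the 93 genes were lower than in the mean of the other 8 types (50.5%), against 21.8% of all genes, and 20 of them were at least 2-fold lower, against 10.1% of all genes. Only 3 genes were higher, against 16.4% of all genes. The median difference was -0.50 over the 93 genes and 0.11 over all genes. For 32 of the 93 genes both neutrophil arrays lay below all 24 other baseline arrays, as they did for 10.1% of all genes. With neutrophil baseline array 1 left out 31 genes were lower, and the other settings of the whole fit gave 45 to 47. The B cell and dendritic cell markers on the neutrophil baseline arrays (8.19 to 8.90 and 8.88 to 9.20) were above those on the interferon arrays, and their part in these differences was not tested.

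The c ring of ATP synthase, which turns as protons cross the membrane, is encoded by Atp5g1, Atp5g2 and Atp5g3, whose mature proteins are the same. Atp5g2 lay at 9.70 and 9.19 on the neutrophil arrays and between 10.81 and 11.63 on all other baseline arrays. Its difference of -1.89 (SE 0.133, limma adjusted p = 6.69e-14) was 3.70-fold. Atp5g1 lay at 9.83 and 9.64 in neutrophils against 10.61 to 11.86 elsewhere (-1.60, SE 0.170, adjusted p = 1.17e-09). All 3 c ring genes were thus below every other baseline array, since Atp5g3 lay at 8.69 and 8.62 against 9.32 to 10.65 (-1.41, SE 0.167, adjusted p = 1.24e-08). Of the 5 genes of the F1 head, which makes ATP, 4 were lower, among them the catalytic subunit gene Atp5b at 10.66 and 10.70 against 11.17 to 12.18 elsewhere (-1.05, SE 0.163, adjusted p = 2.06e-06). Of 9 genes of the stalk and membrane part, 4 were lower.

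Complex I, which oxidises NADH, was lower in 4 of 6 core, 15 of 28 accessory and 5 of 7 assembly genes. Ndufc2, of the membrane arm, lay at 9.40 and 9.36 in neutrophils against 10.68 to 11.75 elsewhere, a difference of -1.89 (SE 0.156, adjusted p = 3.8e-12). Ndufa9, an accessory subunit near the ubiquinone site, lay at 7.10 and 7.23 against 8.11 to 9.36 (-1.74, SE 0.181, adjusted p = 7.96e-10). The core subunit gene Ndufs3 lay at 8.28 and 8.01 against 8.69 to 10.05 (-1.40, SE 0.170, adjusted p = 2.12e-08). For these 3 genes neutrophils and all other cells did not overlap. Ndufs1, which encodes the largest core subunit, did overlap, with 7.58 and 7.91 in neutrophils against 7.22 to 8.63, and was not called in neutrophils.

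Genes of complexes II and III were lower as well. Of 4 complex II subunits 2 were lower in neutrophils, with Sdha, the succinate-oxidising flavoprotein, at -0.50 (SE 0.191, adjusted p = 0.0352), a call lost with the preparation term, with the replicate block and without either neutrophil array. Of 4 complex II assembly factors 3 were lower. Sdhaf1, which helps iron-sulfur clusters into the complex, lay at 7.08 and 6.93 in neutrophils against 7.40 to 10.02 (-1.66, SE 0.176, adjusted p = 1.19e-09). In complex III, 3 of 8 genes were lower. Uqcrb, a ubiquinone-binding subunit, lay at 8.74 and 9.02 against 9.61 to 11.23 (-1.43, SE 0.189, adjusted p = 1.06e-07), and the core protein gene Uqcrc2 differed by -0.89 (SE 0.165, adjusted p = 3.6e-05).

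In complex IV, cytochrome c oxidase, 3 of 10 widely expressed genes were lower in neutrophils, with a median difference of -0.28, and a difference between complexes was not tested. Cox4i1, its regulatory subunit gene, lay just below all other arrays, at 8.46 and 8.56 against 8.62 to 9.84, but was not called. The 3 genes higher in neutrophils were the tissue-restricted isoforms Cox8b (0.47, SE 0.143, adjusted p = 0.00835), Cox4i2 (0.32, SE 0.127, adjusted p = 0.0428) and Cox7b2 (0.31, SE 0.110, adjusted p = 0.0251). None of these 3 calls held throughout. That of Cox4i2 was lost with the preparation term, with the replicate block and without any 1 of 10 arrays, and that of Cox7b2 under quantile normalisation. Without neutrophil baseline array 2 Cox7b2 stood at 0.19 (adjusted p = 0.381), and without array 1 Cox8b stood at 0.32 (adjusted p = 0.278). Cox8b and Cox7b2 stayed below a log2 level of 7 on every array, and no detection calls were used.

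**Figure D2:**
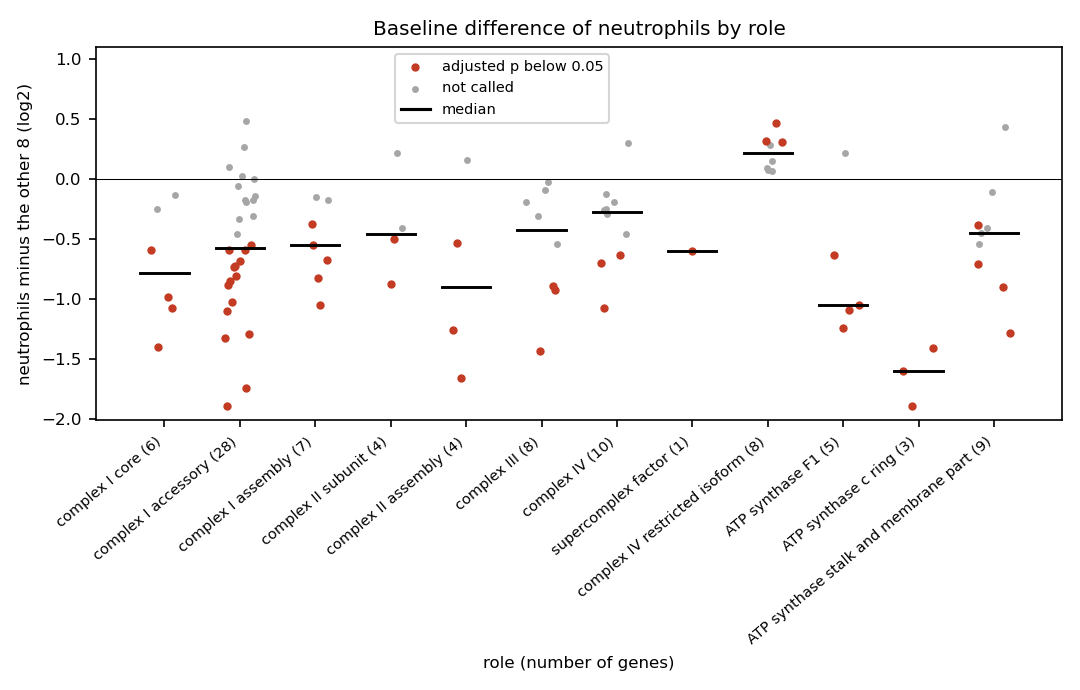
Baseline difference of neutrophils from the mean of the other 8 cell types (log2, vertical axis) for each of the 93 genes, by role (horizontal axis, number of genes in brackets); red points have a limma adjusted p below 0.05 and bars are medians. The 3 c ring genes lie between -1.89 and -1.41, and the red points above 0 are 3 restricted isoforms of complex IV.

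NKT cells were the opposite case at baseline. Of the 93 genes 31 were higher than in the other 8 types (33.3%), against 12.0% of all genes, and limma called 0 lower, against 10.2% (1 at an unadjusted p below 0.05). The median difference was 0.33 over the 93 genes and 0.00 over all genes. The higher genes included 12 of 28 accessory genes of complex I, 5 of 10 of complex IV, all 3 of the c ring and 2 of 4 complex II assembly factors. Sdhaf1 lay at 9.26, 9.03 and 9.48 (0.87, SE 0.147, adjusted p = 3.08e-05). Sdhaf4, which acts on free Sdha during assembly, lay at 7.48, 7.38 and 7.15, against 5.44 to 7.61 elsewhere (0.80, SE 0.166, adjusted p = 0.000444). Atp5md, a small subunit of the membrane part, lay at 9.75, 9.72 and 10.08 (0.75, SE 0.233, adjusted p = 0.0177), a call lost without NKT cell baseline array 1 or 3. With neutrophils left out of the fit 20 genes were higher, and without NKT cell baseline arrays 1, 2 or 3 the count was 17, 17 or 18. Baseline array 3 alone gave 4 genes that differed. Macrophage markers, 6 of 7 measured, stood at 7.68 to 8.93 on these NKT cell arrays, and their part was not tested.

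The gene that stood farthest above the other types in regulatory T cells was Sdhaf1. It lay at 9.80, 9.73 and 10.02, above all 23 other baseline arrays, whose highest was 9.48. The difference from the other 8 types was 1.54 (SE 0.147, adjusted p = 4.8e-10), or 2.91-fold, and it kept its call under every setting run. In order of group mean, Sdhaf1 stood at 9.85 ± 0.15 (SD, n = 3) in regulatory T cells, 9.26 ± 0.23 in NKT cells, 8.90 ± 0.10 in CD4 T cells, 8.82 ± 0.22 in dendritic cells, 8.39 ± 0.14 in gamma-delta T cells, 8.28 ± 0.16 in CD8 T cells, 8.03 ± 0.35 in NK cells, 7.81 ± 0.37 in macrophages and 7.01 ± 0.11 (n = 2) in neutrophils. Of neighbours in that order, the arrays of CD4 T cells and dendritic cells overlapped, as did those of gamma-delta and CD8 T cells, of CD8 T cells and NK cells, and of NK cells and macrophages. In all, 7 genes were higher in regulatory T cells, against 11.1% of all genes, and limma called 0 lower, against 8.61% (5 at an unadjusted p below 0.05). Only 3, 1 or 2 were higher without its baseline arrays 1, 2 or 3, and 1 gene differed with neutrophils left out.

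In the other T cell types and in NK cells few genes stood out. CD4 T cells had 2 genes higher (against 6.21% of all genes) and 0 called lower by limma (against 8.20%; 0 at an unadjusted p below 0.05). CD8 T cells had 8 higher (against 12.1%) and 1 lower (against 10.7%). Without their baseline arrays 1, 2 or 3 the higher genes numbered 2, 2 or 5. Of these, Ndufa10, an accessory subunit of complex I, lay at 10.41, 10.52 and 10.33 in CD8 T cells (0.51, SE 0.104, adjusted p = 0.000336). NK cells had 3 higher (against 8.95%) and 1 lower (against 8.51%). Cox6a2, the heart and muscle isoform of a complex IV subunit, lay at 8.61, 8.92 and 8.30 in NK cells and between 7.26 and 8.33 on all other baseline arrays, so that 1 NK cell array reached into the range of the others. Its difference was 0.68 (SE 0.141, adjusted p = 0.000427). The gene lower in NK cells was Sdhaf1 (-0.51, SE 0.147, adjusted p = 0.0115), a call lost without NK cell baseline array 1 or 3.

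Gamma-delta T cells had 15 genes higher (16.1%), against 6.84% of all genes, and 1 lower, against 10.6%, but the count rested on its baseline array 1. On that array the median level of the 93 genes was 9.72, against 9.06 and 8.84 on arrays 2 and 3, and without it no gene was called, with 28 higher without array 3. Quantile normalisation gave 40 genes that differed in these cells, in place of 16, and the fit without neutrophils gave 10. Ndufs5, an accessory subunit of complex I, lay at 8.80, 7.67 and 8.15 against 6.96 to 7.99 elsewhere (0.72, SE 0.150, adjusted p = 0.000766). NK cell markers ranged from 7.53 to 9.53 and B cell markers from 8.21 to 10.06 over the 3 arrays, and their part was not tested.

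Among the myeloid types, dendritic cells had 14 genes lower (15.1%), against 12.6% of all genes, and 2 higher, against 11.4%. Without its baseline arrays 1, 2 or 3 the lower genes numbered 2, 6 or 0. Ndufc2 was higher in dendritic cells, at 11.41, 11.75 and 11.59 against at most 11.57 elsewhere (0.59, SE 0.130, adjusted p = 0.000552). Atp5k, subunit e of ATP synthase, was lower, at 7.58, 7.79 and 7.53 (-0.53, SE 0.153, adjusted p = 0.00873), a call lost without dendritic cell baseline array 1 or 3. Macrophages had 4 genes higher, against 13.6% of all genes, and 4 lower, against 14.5%. Without macrophage baseline arrays 1, 2 or 3 the higher genes numbered 12, 2 or 0, and without gamma-delta T cell baseline array 1 they numbered 7. Their largest negative difference was in Sdhaf1, at 7.40, 7.94 and 8.09 (-0.76, SE 0.147, adjusted p = 9e-05). Ndufa1, a complex I subunit of the membrane arm, lay at 6.92, 7.05 and 8.0 in macrophages (0.69, SE 0.184, adjusted p = 0.00321), and without baseline array 3 its difference was 0.36 (adjusted p = 0.215). Taking dendritic cells, macrophages and neutrophils together against the 6 lymphocyte types, 57 genes were lower (61.3%), against 23.7% of all genes, and 1 was higher, against 18.9%. With neutrophils left out 27 were lower, and 25 with gamma-delta T cells left out as well. Baseline array 3 alone, a fit that has no neutrophils, gave 0 lower, and 36 of the 57 kept their sign. The lowest were Sdhaf1 (-0.91), Ndufa9 (-0.81) and Ndufs3 (-0.76), and the 1 higher gene was the muscle isoform Cox7a1 (0.17), which stayed below a log2 level of 7 on every array.

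**Figure D3:**
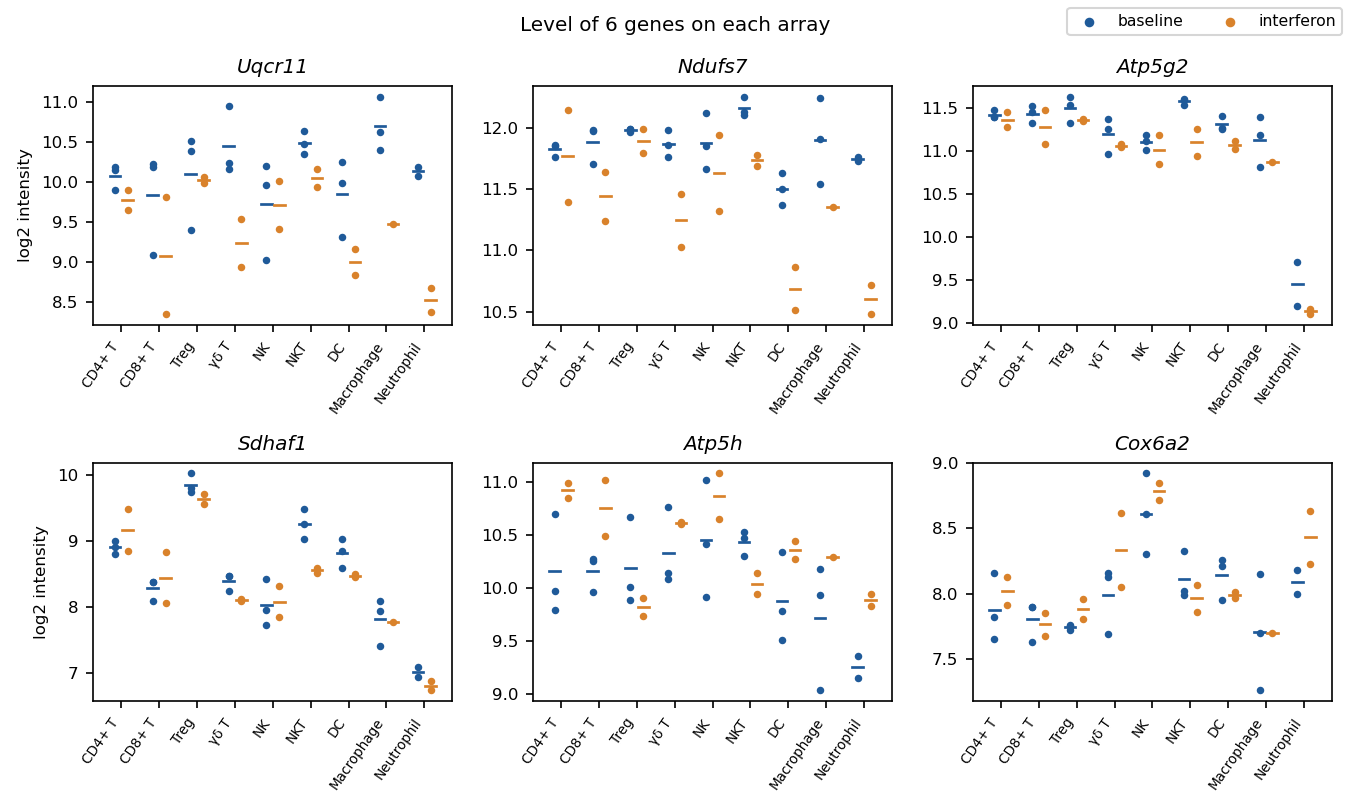
Log2 intensity of 6 genes (panels) on each array, by cell type (horizontal axis), with baseline arrays in blue, interferon arrays in orange and bars at group means. Atp5g2 and Sdhaf1 are lowest in neutrophils, Sdhaf1 is highest in regulatory T cells, Cox6a2 is highest in NK cells, and the Uqcr11 interferon mean lies below the baseline mean in all 9 cell types.

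Isoform pairs of complex IV were compared across cell types gene by gene, since levels of different probe sets cannot be set against each other. The widely expressed Cox6a1, Cox8a and Ndufa4 differed among cell types (F test adjusted p = 0.0102, 0.00721 and 0.000751), while Cox4i1, Cox6b1 and Cox7a2 did not pass (0.166, 0.559 and 0.128). Of the restricted forms, Cox6a2, Cox7a1 and Cox6b2 differed (0.00262, 0.00253 and 0.0428). Cox4i2, Cox8b, Cox8c and Ndufa4l2 did not pass (0.362, 0.219, 0.317 and 0.817). Cox7a2l, classed above as a supercomplex factor, differed among cell types (F test adjusted p = 0.0345). It was lower in neutrophils by -0.60, a call lost without either neutrophil array and under quantile normalisation. In all, 7 of the 93 genes reached a log2 level of 7 on fewer than 2 arrays, namely Cox7a1, Cox7b2, Cox8b, Ndufa4l2, Ndufaf2, Ndufaf5 and Ndufaf6.

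After interferon few respiratory chain genes changed, and nearly all that did were lowered. On the mean over the 9 cell types 16 of the 93 genes were lowered (17.2%), against 17.5% of all genes, so that their share was near the background. Only 1 was raised, against 9.55% of all genes. The median change was -0.03 over the 93 genes and 0.00 over all genes, and no gene changed by 2-fold on average. The lowered genes were 9 of complex I, 2 of complex II, 1 of complex III, 2 of complex IV and 2 of the c ring.

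Uqcr11, a small subunit of complex III, had the largest fall. It lay at 10.08 and 10.19 on the baseline and 8.37 and 8.68 on the interferon arrays of neutrophils. In gamma-delta T cells it went from 10.96, 10.16 and 10.24 to 9.54 and 8.94, and in NKT cells from 10.36, 10.48 and 10.64 to 10.16 and 9.94. Treatment groups did not overlap in these types, nor in dendritic cells (9.99, 10.26 and 9.32 to 9.17 and 8.84) or macrophages (10.41, 11.07 and 10.63 to 9.48). They overlapped in NK cells (10.20, 9.96 and 9.03 to 9.42 and 10.01), CD8 T cells (10.19, 10.23 and 9.09 to 9.81 and 8.35) and regulatory T cells (10.39, 10.52 and 9.40 to 9.99 and 10.07), where baseline array 3 was the lowest of its group. In CD4 T cells the arrays went from 9.90, 10.19 and 10.15 to 9.65 and 9.90 and met at 9.90. The mean change was -0.72 (SE 0.129, adjusted p = 4.21e-05) and was negative in 9 of 9 types. With a term for the preparation wording it came to -0.36 (adjusted p = 0.125), and against baseline array 3 alone to -0.26.

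Ndufs7, a core subunit of complex I that hands electrons to ubiquinone, was lowered on average under every setting run. Its arrays went from 11.73 and 11.76 to 10.48 and 10.72 in neutrophils, and from 11.50, 11.63 and 11.37 to 10.86 and 10.51 in dendritic cells. In gamma-delta T cells they went from 11.76, 11.86 and 11.98 to 11.46 and 11.03, and in NKT cells from 12.13, 12.10 and 12.25 to 11.78 and 11.69. Treatments did not overlap in these 4 types, nor in CD8 T cells (11.97, 11.98 and 11.70 to 11.64 and 11.24) or macrophages (11.54, 12.24 and 11.91 to 11.35). In CD4 T cells the interferon arrays, at 11.39 and 12.14, lay on both sides of the baseline arrays at 11.85, 11.86 and 11.76, and regulatory T cells and NK cells overlapped as well. The mean change was -0.49 (SE 0.0702, adjusted p = 1.31e-06), negative in 9 of 9 types. It was -0.44 with the preparation term (adjusted p = 0.00132) and -0.36 against baseline array 3 alone (adjusted p = 0.0164).

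Other genes lowered on average had smaller changes. Ndufs8, a core iron-sulfur subunit next to Ndufs7 in complex I, fell by 0.48 on the log2 scale (SE 0.0927, adjusted p = 0.00013), and the accessory genes Ndufa11 and Ndufa13 changed by -0.44 and -0.42. Cox6b1, which bridges the monomers of complex IV, changed by -0.40 (SE 0.0699, adjusted p = 3.29e-05) and Cox8a by -0.34. Of the c ring, Atp5g1 changed by -0.36 (SE 0.0732, adjusted p = 0.000187) and Atp5g2 by -0.21 (SE 0.0573, adjusted p = 0.00506). The remaining lowered genes, Ndufb9, Ndufa6, Ndufaf3, Sdhaf4, Ndufc2, Sdhc and Ndufa10, changed by -0.32 to -0.16. Sdhaf4 has 2 probe sets, whose values correlated at 0.16 over the arrays, and averaging them took its change on average to -0.15 (adjusted p = 0.142). With the preparation term 4 of the 16 were called, Ndufs7, Cox6b1, Atp5g1 and Atp5g2, and all 16 kept their sign. Against baseline array 3 alone 2 were called, Ndufs7 and Atp5g2. Without any single array 14 of the 17 calls on average held, while those of Sdhaf4, Sdhc and Ndufa10 were lost without CD8 T cell interferon array 2. Sdhaf4 and Ndufa10 were also lost without gamma-delta T cell interferon array 2, and Sdhaf4 without NK cell interferon array 2 or NKT cell interferon array 1.

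The raised gene was Atp5h, subunit d of the peripheral stalk of ATP synthase. It went from 9.79, 9.97 and 10.70 to 10.85 and 10.99 in CD4 T cells, from 9.15 and 9.36 to 9.83 and 9.94 in neutrophils, and from 10.30, 10.53 and 10.47 to 9.94 and 10.14 in NKT cells, where it lay lower after interferon. The mean change was 0.33 (SE 0.105, adjusted p = 0.0159), positive in 7 of 9 types. In several types baseline array 3 already lay near the interferon arrays, and the mean change was 0.09 with the preparation term (adjusted p = 0.748) and 0.07 against baseline array 3 alone.

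**Figure D4:**
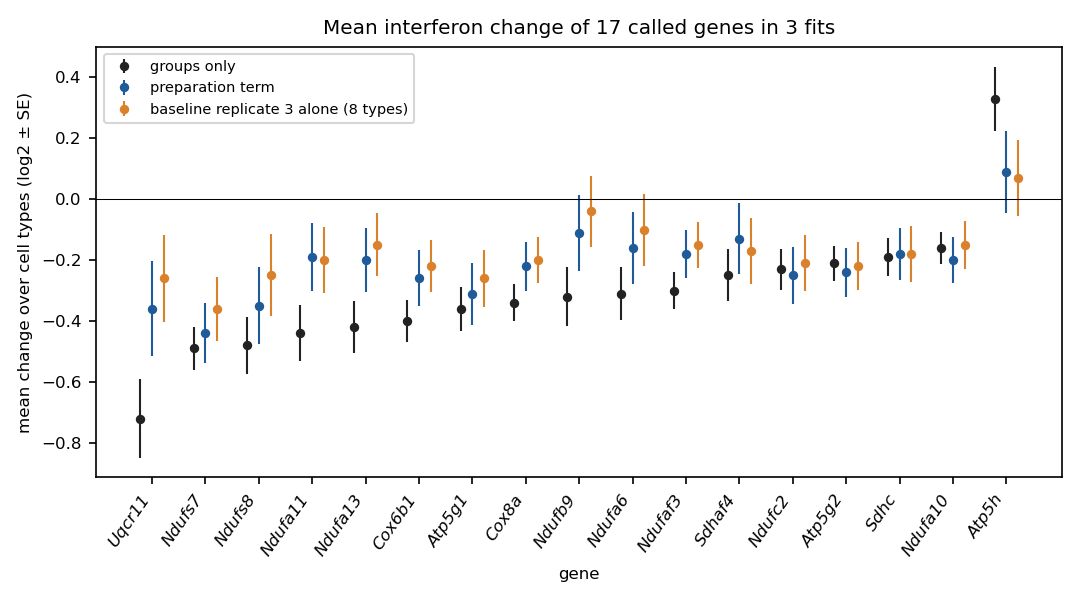
Mean change over cell types (log2, vertical axis, bars are SE) of the 17 genes called on average (horizontal axis), from the fit of groups only, the fit with a preparation term and the fit against baseline array 3 alone, which has 8 cell types. All 16 lowered genes stay below 0 with the preparation term. With that term Uqcr11 moves from -0.72 to -0.36 and Atp5h from 0.33 to 0.09. Ndufs7 moves less from its -0.49 with that term, and stands at -0.36 against baseline array 3 alone.

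Neutrophils had the most calls of any single type. Of the 93 genes 11 were lowered (11.8%), against 7.49% of all genes, and 3 of them at least 2-fold, against 2.85% of all genes. None was called raised by limma, against 4.21% (0 at an unadjusted p below 0.05). The median change was -0.16 over the 93 genes and 0.08 over all genes. Uqcr11 changed by -1.61 (SE 0.408, adjusted p = 0.00648), which is 3.05-fold. Ndufs8 went from 10.30 and 10.22 to 8.65 and 9.30 (-1.29, SE 0.292, adjusted p = 0.00232), and Ndufs7 changed by -1.14 (SE 0.221, adjusted p = 0.000393). The other 8 called were Ndufb9, Ndufa13, Ndufa6, Cox6b1, Atp5g1, Ndufaf3, Cox8a and Ndufa10 (-0.93 to -0.56). The call of Uqcr11 was lost without baseline array 2 or interferon array 1, and that of Ndufs8 without interferon array 1. Leaving out neutrophil baseline array 1 or 2 or interferon array 1 left 3, 2 and 2 calls, the preparation term left 3, Ndufs7, Ndufs8 and Ndufa10, and quantile normalisation left 5. The preparation shift used for neutrophils was estimated from the other cell types only. Over the same arrays B cell markers stood at 8.19 to 8.90 at baseline and 6.60 to 6.75 after interferon, and 5 dendritic cell markers at 8.88 to 9.20 and 6.99 to 7.40. The latter (Flt3, Itgax, Zbtb46, H2-Aa and Cd74) fell together with the B cell markers and do not by themselves show dendritic cells. Neutrophil markers stood at 12.97 to 13.11 and 12.77 to 12.80. The part of these other cells in the changes was not tested.

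Gamma-delta T cells had 5 genes lowered (against 3.35% of all genes), 1 of them by 2-fold (against 0.683%), and 0 called raised by limma (against 2.38%; 0 at an unadjusted p below 0.05). The median change was -0.23 over the 93 genes and -0.02 over all genes. Uqcr11 changed by -1.22 (SE 0.372, adjusted p = 0.0453). Sdhaf4 went from 7.61, 6.98 and 6.64 to 6.33 and 5.96 (-0.93, SE 0.247, adjusted p = 0.017), and Cox6b1 from 11.71, 11.36 and 11.17 to 10.69 and 10.55 (-0.79, SE 0.201, adjusted p = 0.0119). With the 2 probe sets of Sdhaf4 averaged, its change was -0.55 and was not called (adjusted p = 0.141). The other calls were Atp5k (-0.80) and Sdhc (-0.57). All 5 calls were lost without baseline array 1 or interferon array 2, and 3 were made without baseline array 3. Single arrays of other types, which share the estimate of spread, left at least 3. The call of Uqcr11 was lost without any 1 of 16 arrays and that of Sdhc without any 1 of 30. Both were also lost under quantile normalisation and with neutrophils left out. The preparation term left 1 call, Cox6b1. B cell markers ranged from 8.21 to 10.06 at baseline and from 8.35 to 9.80 after interferon, and their part was not tested.

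In NKT cells 4 genes were lowered (against 3.68% of all genes) and 0 called raised by limma (against 4.48%; 0 at an unadjusted p below 0.05), and 82 of the 93 changes were below 0. The median change was -0.28 over the 93 genes and -0.10 over all genes. Ndufa6, an accessory subunit of complex I, went from 9.42, 9.45 and 9.18 to 8.34 and 8.73 (-0.81, SE 0.253, adjusted p = 0.0403). Sdhaf1 went from 9.26, 9.03 and 9.48 to 8.51 and 8.59 (-0.70, SE 0.218, adjusted p = 0.0393). Sdhaf4 (-0.77) and the complex I assembly factor gene Ndufaf3 (-0.55) made up the rest. The call of Sdhaf4 was lost with its probe sets averaged (-0.48, adjusted p = 0.175) and under quantile normalisation (-0.72, adjusted p = 0.0836). All calls were lost without baseline array 1 or interferon array 1, and 1 and 2 were made without baseline array 2 and interferon array 2. Single arrays of other types left at least 2, and the preparation term kept Sdhaf1 alone. That term does not adjust for the wording particular to the NKT cell interferon arrays. Macrophage markers stood at 7.68 to 8.93 at baseline and at 8.52 to 9.66 after interferon, and their part was not tested.

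In dendritic cells 2 genes were lowered (against 2.89% of all genes) and 0 called raised by limma (against 3.72%; 2 at an unadjusted p below 0.05). Ndufs7 changed by -0.81 (SE 0.202, adjusted p = 0.00778), a call lost without interferon array 2. Cox8a, a small complex IV subunit, went from 10.70, 10.89 and 10.54 to 10.10 and 10.09 (-0.62, SE 0.176, adjusted p = 0.0244). The preparation term left Ndufs7 alone, and with baseline array 1 or 2, or interferon array 1 or 2, left out 1 gene was called.

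No gene passed limma's threshold in the remaining 5 types. In CD4 T cells, where 1.24% of all genes were raised and 0.385% lowered, the smallest adjusted p was 0.06, and 5 genes had an unadjusted p below 0.05. There were 5 such genes for CD8 T cells (background 1.33% raised and 1.32% lowered), 1 for regulatory T cells (1.38% and 0.0962%), 1 for NK cells (1.83% and 1.83%) and 9 for macrophages (1.55% and 0.557%). Medians of the 93 changes were 0.14 and 0.06 for CD4 and CD8 T cells, -0.10 for regulatory T cells, 0.18 for NK cells and -0.05 for macrophages. With a single interferon array, macrophages gave the least precise of these values.

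**Figure D5:**
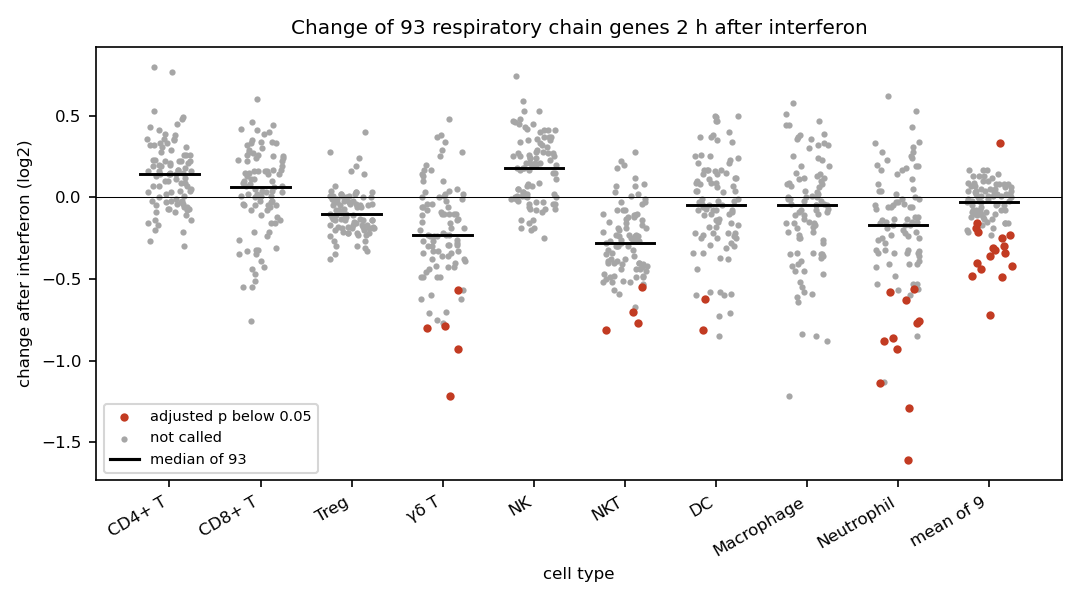
Change 2 h after interferon (log2, vertical axis) of each of the 93 genes in each cell type and on the mean of the 9 (horizontal axis); red points have a limma adjusted p below 0.05 and bars are medians. Red points lie below 0 except Atp5h on the mean, the median is lowest in NKT cells at -0.28, and 5 cell types have no red point.

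Whether the changes differed between cell types was tested directly. The F test called 0 of 93 genes (smallest adjusted p = 0.11, Ndufs5), against 4.16% of all genes, and 5 had an unadjusted p below 0.05. The change in 1 type minus the mean change in the other 8 was called by limma for 0 of 93 genes in each of the 9 types, with 1 to 11 genes at an unadjusted p below 0.05. The smallest adjusted p in neutrophils was 0.0669, for Ndufs7 (-0.74, SE 0.233), followed by Ndufs8 (-0.91, SE 0.308, adjusted p = 0.0944). The larger count in neutrophils thus came without a called difference from the other types.

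The representative subunits of the 5 complexes showed small mean changes that did not pass. Ndufs1 changed by 0.03 (adjusted p = 0.858), Sdha by 0.01 (adjusted p = 0.929), Uqcrc2 by 0.17 (adjusted p = 0.0788), Cox4i1 by 0.00 (adjusted p = 0.983) and Atp5b by 0.09 (adjusted p = 0.4). Of the 8 restricted isoforms of complex IV none was called on average or in a cell type.

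Genes that serve the chain without its prefixes were taken from a list of 44 electron carriers and assembly factors, of which 39 were measured. Other settings of the fit were read for the 93 genes only, so calls in this and the other lists were not checked under them. On average 7 were raised and 7 lowered by interferon (17.9% each), against 9.55% and 17.5% of all genes. Cox18, which inserts a complex IV subunit into the membrane, changed by 0.87 and Surf1, an assembly factor of complex IV, by -0.66, with 1.63 and -1.24 in neutrophils. Cycs, which encodes cytochrome c, changed by 0.32 and Cyc1, its docking subunit in complex III, by -0.36. In baseline neutrophils 23 of the 39 were lower and 2 higher, against 21.8% and 16.4% of all genes. Lrpprc, which stabilises mitochondrial messenger RNA, differed by -1.85, Cycs by -1.20 and Cyc1 by -1.29, and the higher genes were the copper carrier Cox17 (0.86) and the glycerol phosphate dehydrogenase Gpd2 (0.92).

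The machinery that expresses the mitochondrial genome was also low in baseline neutrophils. Of 77 mitochondrial ribosome genes 52 were lower and 2 higher, against 21.8% and 16.4% of all genes, with Mrps18b at -2.18. Of 21 protein import genes 14 were lower, with the chaperone gene Hspa9 at -1.90. Of 19 measured regulators of mitochondrial transcription and biogenesis 10 were lower (52.6%) and 3 higher (15.8%), the latter near the background. Tfam, which packages mitochondrial DNA, differed by -1.64 and Myc by -3.08, whereas Nrf1 was 0.34 higher. After interferon 6 of the 77 ribosome genes were raised and 15 lowered on average, 1 and 5 of the import genes, and 3 and 9 of the regulators, against 9.55% raised and 17.5% lowered of all genes. The shares lowered, 19.5% of the ribosome and 23.8% of the import genes, were near that background, and 47.4% of the regulators were lowered. Among the regulators Tfam changed by 0.46, Yy1 by -0.46 and Nrf1 by -0.20.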

How the data were processed

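RNA of sorted mouse immune cells was measured on 43 arrays. The deposited values are linear intensities per probe set, made with Affymetrix Power Tools and RMA per the submitters' processing notes, where RMA is a method that combines the probes of a set after normalising the arrays together. Their versions are not given, nor is a build, in the sources used here. Intensities ran from 4.69 to 22042 with array medians of 104.7 to 125.1. The deposited intensities were log2-transformed here without further scaling, and no detection calls were used, and precision is limited by how many arrays each group has.

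Of 24922 probe sets, 21425 had 1 symbol in GEO's annotation of the platform, whose names may be outdated, 1399 had several and 2098 none. The brightest probe set per symbol gave 19752 genes, and 6 probe sets that a respiratory chain symbol shares with another symbol were left out. One model over the 18 groups was fitted by lmFit and eBayes (limma 3.58.1 under R 4.3.3, two-sided), and p-values were adjusted over all genes within a comparison by the Benjamini-Hochberg method. A gene was called at adjusted p below 0.05. The procedure was tested on simulated data. The comparisons were interferon against baseline in each cell type and on their mean, each type against the mean of the other 8 at baseline and in its change, myeloid types against lymphocytes, and F tests over the 9 types. Named genes were those with the largest called changes or baseline differences, 1 core subunit of each complex, the isoform sets and called list members. The members and lists were chosen with earlier results of these data known. Alternatives were a preparation term that sets the wording of baseline arrays 1 and 2 against all others, baseline array 3 alone, replicate number as a block, dim genes left out (below a log2 level of 7 on all but 1 array), robust moderation with a variance trend, quantile normalisation, averaged probe sets, leaving out single arrays and, chosen after seeing the data, neutrophils, or neutrophils and gamma-delta T cells, left out. Same-numbered arrays were checked for pairing, which the check could not settle, and were treated as unpaired. Promoters were taken from RefSeq (GRCm38.p6).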

Additional observations from a re-analysis of the deposited data

How the results depend on the processing

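Changes after interferon depended most on the preparation wording and on single arrays. With the preparation term the lowered genes fell in number from 16 to 4 on average, from 11 to 3 in neutrophils and to 1 each in gamma-delta T cells, NKT cells and dendritic cells, and no gene was raised on average (0). Against baseline array 3 alone, with 17 residual degrees of freedom, 2 genes were lowered and 0 raised on average, and 0 were lowered in gamma-delta T cells, NKT cells and dendritic cells. At baseline the same fit left 13 genes that differed among types, and 0, 1 and 1 that stood apart in CD8, regulatory and gamma-delta T cells, with 2, 4 and 2 in NK, NKT and dendritic cells. With neutrophils left out 1 gene was raised in CD4 T cells, 3 were lowered in gamma-delta T cells and 2 in NKT cells, 31 differed among types at baseline, and 0, 5, 1 and 10 stood apart in CD4, CD8, regulatory and gamma-delta T cells. With gamma-delta T cells left out as well, 1 gene was raised in CD4 T cells and 3 on average, 32 differed among types, and 0, 3, 1 and 13 stood apart in CD4, CD8 and regulatory T cells and macrophages. Quantile normalisation gave 4 lowered genes in dendritic cells and 5 in neutrophils, and 4 and 40 that stood apart at baseline in CD4 and gamma-delta T cells. Leaving out dim genes gave 1 raised gene in CD4 T cells and 2 on average, and the variance trend left 1 gene apart in CD4 T cells. Of the myeloid types against lymphocytes, 27 genes were lower with neutrophils left out, 25 with gamma-delta T cells left out as well and 0 with baseline array 3 alone, in place of 57. In place of 1 higher gene there were 2 with baseline array 3 alone, 2 with neutrophils and gamma-delta T cells left out, and 0 under quantile normalisation and with dim genes left out. The remaining counts of interferon changes, of genes that differed among types and of genes apart at baseline stayed within 1.5 times under these settings, as they did under the mean of probe sets. The cause of these shifts was not tested.

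For same-numbered arrays, the correlation of their deviations from the group mean ran from -0.301 to 0.347 over 16 pairs and exceeded 0.1 in 7. Both values exceeded 0.1 in NK cells, NKT cells and neutrophils, and both were below 0 in gamma-delta T cells. With so few arrays per group and no reference from differently numbered arrays, this does not settle whether arrays were paired. With replicate number as a block 5 genes were lowered in dendritic cells and 5 raised on average.

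With each array left out in turn, lowered genes numbered 13 to 19 on average, 2 to 13 in neutrophils, 0 to 6 in gamma-delta T cells, 0 to 5 in NKT cells, 1 to 3 in dendritic cells and 0 to 1 in CD8 T cells. Raised genes numbered 1 to 3 on average and 0 to 1 in CD4 T cells and in neutrophils, and 0 to 1 gene differed in its change among types. Genes that stood apart at baseline numbered 0 to 4, 2 to 13, 1 to 10 and 0 to 29 in CD4, CD8, regulatory and gamma-delta T cells, 2 to 5 and 17 to 44 in NK and NKT cells, and 1 to 20, 6 to 14 and 32 to 55 in dendritic cells, macrophages and neutrophils. Myeloid types against lymphocytes gave 0 to 2 higher and 46 to 62 lower. Of 22 calls of single genes in single types only Ndufs7 in neutrophils held without any 1 array, and of 49 named baseline differences 20 did. None of these values changed sign with an array left out. Against baseline array 3 alone some baseline differences did, among them differences of myeloid types from lymphocytes.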

Other observations

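The fuel side of respiration was low in part in baseline neutrophils. Of 26 measured genes of the tricarboxylic acid cycle and its entry, 17 were lower than in the other 8 types and 2 higher, against 21.8% and 16.4% of all genes, with Idh3a, which encodes the catalytic chain of an isocitrate dehydrogenase, at -1.99 (SE 0.214, limma adjusted p = 1.69e-09). Of 21 measured glycolysis genes 10 were higher (47.6%) and 6 lower (28.6%). Their median difference was 0.01, against 0.11 over all genes, so the list as a whole was not raised. Among the higher genes, the hexokinase gene Hk3 differed by 3.33 (SE 0.216) and the glucose transporter gene Slc2a3 by 3.07 (SE 0.243). Pkm, which encodes pyruvate kinase, differed by 0.96 (SE 0.154). After interferon 5 of the 26 cycle genes were raised and 5 lowered on average, and 5 and 5 of the 21 glycolysis genes, against 9.55% raised and 17.5% lowered of all genes. Pdk3, a kinase that holds back pyruvate dehydrogenase, changed by 0.91 on average (SE 0.104, adjusted p = 1.38e-08) and by 2.95 in neutrophils (SE 0.326), while its relative Pdk2 changed by -0.81 (SE 0.0864) on average. Slc2a3 changed by -0.91 (SE 0.105), and Pfkp, a phosphofructokinase gene, by 2.01 in dendritic cells (SE 0.288, adjusted p = 5.39e-06). Calls of list genes were not checked under the alternative settings. For changes in neutrophils, preparation and treatment cannot be told apart.

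Among 13 measured genes of the inner membrane and of complex remodelling, 6 were lower and 3 higher in baseline neutrophils, against 21.8% and 16.4% of all genes. AA467197, a relative of the complex IV subunit gene Ndufa4, was 4.03 higher in neutrophils (SE 0.133, limma adjusted p = 9.97e-23), where Ndufa4 itself was lower by -1.07. It changed by 0.64 in dendritic cells after interferon (SE 0.165, adjusted p = 0.0111). Slc25a4, which exchanges ADP and ATP across the membrane, differed by -2.01 in neutrophils (SE 0.213) and changed by -0.46 on average after interferon (SE 0.0921, adjusted p = 0.00017).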
